A study of Mus musculus with 6 samples.

Results

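The regions described here are the short stretches of DNA that separate closely spaced mouse genes, and the open-chromatin peaks that lie on them. A gap was defined as the 1 to 1000 bp between adjacent protein-coding gene spans on the same autosome that did not overlap each other, in the RefSeq annotation of the mouse build GRCm38.p6. There were 1958 such gaps, with a median length of 255 bp (quartiles 91 and 573 bp), and 3542 of 20665 autosomal protein-coding genes (17.1%) bordered at least 1 of them. A gap peak was a peak that overlapped a gap by at least 1 bp. This rule, which uses positions and not peak values, took 1115 of 98072 peaks (1.14%) in Lap2alpha KO cells and 1145 of 106132 peaks (1.08%) in WT cells.

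The data came from ATAC-seq, in which the Tn5 transposase cuts and tags accessible DNA, on cultured mouse dermal fibroblasts. There were 3 libraries of Lap2alpha KO cells and 3 libraries of WT cells, all grown in DMEM with fetal calf serum, penicillin and streptomycin. Lap2alpha is a nucleoplasmic product of the Tmpo gene that binds A-type lamins, and its loss was the sole genotype difference that the labels named. The sources used here do not give strain, age, knockout method or whether each library had its own animal or culture. The authors deposited 1 combined peak list per genotype, so no value has a replicate spread, no test between genotypes could be made, and the depth of the libraries is unknown. Intervals below are 95% intervals that cover counting error only, and neighbouring regions are not independent of each other. Of 12 dermal fibroblast markers, 11 had a peak at a gene end in the KO list and 11 in the WT list. Lum was the marker without one. Keratinocyte markers with a gene-end peak numbered 2 of 6 in each list (Krt10 and Krt14), while Krt5, Trp63, Cdh1 and Dsg3 had none. Among leukocyte markers Spi1 alone had a peak (1 of 6 in each list), and among endothelial markers Cdh5 alone did (1 of 6 in each list).

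Genes of mammals are often packed in pairs. In a head-to-head pair the genes start next to each other and are read in opposite directions, so that the gap, often called a bidirectional promoter, holds the start regions of both. Such promoters are known to be rich in CpG dinucleotides and to serve many genes of DNA repair, the mitochondrion and other functions that most cells need. In a head-to-tail pair the gap joins the end of one gene to the start of the next, and in a tail-to-tail pair it holds the ends of both. Where the strand of both genes was known, 548 gaps were head-to-head, 435 head-to-tail and 414 tail-to-tail. The other 561 gaps had at least 1 gene of unknown strand.

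The sequences of 8 head-to-head gaps are given as examples. The peaks on them were much wider than the gaps, and some summits lay outside the gap. The Cbx5-Hnrnpa1 gap, for example, is 38 bp long, and its KO peak was 2027 bp wide with the summit in Hnrnpa1. The first 4 gaps lie between pairs known as close neighbours, the next 3 belong to gene groups described below, and the last is a histone gap with some of the strongest peaks. They are plus-strand RefSeq sequence of GRCm38.p6, with the gap in capitals and 15 bp of each gene in lower case.
Atm-Npat: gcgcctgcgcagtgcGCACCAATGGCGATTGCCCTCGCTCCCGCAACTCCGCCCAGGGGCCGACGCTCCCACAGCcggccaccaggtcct
Ranbp1-Trmt2a: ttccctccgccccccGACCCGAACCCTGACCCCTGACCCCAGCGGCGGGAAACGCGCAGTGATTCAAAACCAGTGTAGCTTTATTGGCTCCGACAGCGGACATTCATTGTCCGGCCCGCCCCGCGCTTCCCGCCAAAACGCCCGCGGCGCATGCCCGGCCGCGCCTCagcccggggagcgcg
Mrps12-Sars2: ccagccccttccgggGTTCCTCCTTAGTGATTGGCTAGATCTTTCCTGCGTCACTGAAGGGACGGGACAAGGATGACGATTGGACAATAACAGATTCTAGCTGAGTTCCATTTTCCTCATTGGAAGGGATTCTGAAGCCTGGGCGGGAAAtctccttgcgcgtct
Psmb9-Tap1: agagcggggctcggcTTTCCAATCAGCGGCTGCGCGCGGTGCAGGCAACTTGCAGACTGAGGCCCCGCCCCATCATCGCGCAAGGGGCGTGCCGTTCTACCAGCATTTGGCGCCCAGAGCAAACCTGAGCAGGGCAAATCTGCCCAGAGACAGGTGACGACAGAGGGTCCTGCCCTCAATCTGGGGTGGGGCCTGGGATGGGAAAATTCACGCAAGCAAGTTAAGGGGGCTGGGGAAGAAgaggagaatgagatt
Cbx5-Hnrnpa1: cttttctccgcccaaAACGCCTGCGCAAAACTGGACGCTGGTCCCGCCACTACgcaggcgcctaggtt
Uqcrh-Lrrc41: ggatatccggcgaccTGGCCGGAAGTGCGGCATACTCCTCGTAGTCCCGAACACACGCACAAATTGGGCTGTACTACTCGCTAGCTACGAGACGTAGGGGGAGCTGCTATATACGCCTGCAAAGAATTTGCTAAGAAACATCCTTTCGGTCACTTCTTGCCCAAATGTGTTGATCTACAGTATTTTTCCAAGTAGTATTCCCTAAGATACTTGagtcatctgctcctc
Abhd8-Mrpl34: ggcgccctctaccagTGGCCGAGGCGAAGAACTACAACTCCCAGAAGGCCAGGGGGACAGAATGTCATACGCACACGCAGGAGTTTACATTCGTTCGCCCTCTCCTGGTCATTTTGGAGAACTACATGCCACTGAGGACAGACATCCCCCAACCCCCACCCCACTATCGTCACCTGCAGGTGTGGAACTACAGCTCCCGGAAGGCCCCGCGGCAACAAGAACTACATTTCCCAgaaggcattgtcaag
H2ac24-H4bc24: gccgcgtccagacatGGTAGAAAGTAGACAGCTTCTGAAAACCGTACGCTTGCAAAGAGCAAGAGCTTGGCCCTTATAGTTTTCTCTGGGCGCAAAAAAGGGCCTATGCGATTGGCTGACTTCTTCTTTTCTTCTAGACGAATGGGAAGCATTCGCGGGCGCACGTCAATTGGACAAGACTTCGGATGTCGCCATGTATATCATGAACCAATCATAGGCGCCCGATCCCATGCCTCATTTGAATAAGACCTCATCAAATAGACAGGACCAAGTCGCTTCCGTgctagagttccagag
The positions, in the same order, are chr9:53536814-53536903, chr16:18248680-18248861, chr7:28741807-28741971, chr17:34187316-34187570, chr15:103239890-103239957, chr4:116075056-116075283, chr8:71464693-71464940 and chr13:21833461-21833757. The Atm-Npat gap is 60 bp long and holds GGGCGG, the GC box, on its minus strand, and CCAAT. The gaps of Ranbp1-Trmt2a, Mrps12-Sars2 and Psmb9-Tap1 also held both motifs on at least 1 strand. Known pairs not shown here differed. The Brca1-Nbr1 gap held CCAAT but not GGGCGG, and the gaps of Sirt3-Psmd13 and Wrap53-Trp53 held neither. The gaps of Uqcrh-Lrrc41 and Abhd8-Mrpl34 held CCGGAAG, a motif of ETS factors. None of these 8 gaps held TATAAA.

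Among known neighbouring pairs, 8 met the rule, and each had 1 peak in the KO list and 1 in the WT list that overlapped each other. Atm, the kinase that signals DNA double-strand breaks, and Npat, a coactivator of histone genes, shared a peak of 2712 bp in KO cells and 2536 bp in WT cells. The deposited signal of a peak is an area that grows with its width and has no scaling between the lists, so it is given as a percentile of all peaks of the same list. For Atm-Npat it stood at percentile 98.0 in KO cells and 98.3 in WT cells. Brca1, which acts in homologous recombination, and Nbr1, an autophagy receptor, are 151 bp apart, and their peak stood at percentile 99.8 in KO cells and 99.7 in WT cells. Wrap53, which guides telomerase RNA to Cajal bodies, and the tumour suppressor Trp53 are 97 bp apart, with a peak of 3419 bp in KO cells and 3083 bp in WT cells. In KO cells this peak overlapped 2 WT peaks.

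The other known pairs also had peaks above the median of their lists. Ranbp1, a regulator of the GTPase Ran, and the tRNA methyltransferase gene Trmt2a had a peak of 2594 bp in KO cells and 2759 bp in WT cells. Mcm4, a subunit of the replicative helicase, and Prkdc, the kinase of DNA end joining, had one of 1888 bp in KO cells and 1909 bp in WT cells. Mrps12 and Sars2, a mitochondrial ribosomal protein and the mitochondrial seryl-tRNA synthetase, had a peak at percentile 94.4 in KO cells and 95.3 in WT cells. Psmb9 and Tap1, an immunoproteasome subunit and the peptide transporter of antigen presentation, had one at percentile 84.3 in KO cells and 86.3 in WT cells. Sirt3-Psmd13, a mitochondrial deacetylase and a proteasome lid subunit, had one at percentile 82.7 in KO cells and 86.4 in WT cells. That peak was also narrower in KO cells (1062 bp) than in WT cells (1429 bp). Hspd1-Hspe1, Col4a1-Col4a2, Surf1-Surf2 and Paics-Ppat have gene spans that overlap by 96, 85, 239 and 277 bp, so these pairs have no gap and are not counted.

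Over all gaps, 1097 of 1958 had a peak in both lists, 14 in the KO list only, 46 in the WT list only and 801 in neither. The one-list gaps made up 0.715% (KO only) and 2.35% (WT only) of the gaps. As background, flanks of 255 bp, the median gap length, were taken outside genes that border no gap. At 12216 such 5′ flanks a peak lay in the KO list only in 0.884% and in the WT list only in 1.90%. At 12144 such 3′ flanks these shares were 0.700% for KO only and 1.47% for WT only. Within 1 kb of either side of all autosomal gene ends they were 1.36% for KO only and 2.49% for WT only. The one-list shares of gaps therefore lay near the background of gene ends in general.

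The share of gaps with a peak differed by orientation in both genotypes. Of the 548 head-to-head gaps, 511 (93.2%) had a peak in KO cells and 514 (93.8%) in WT cells. Of the 435 head-to-tail gaps, 61.4% had one in KO cells and 63.2% in WT cells. Of the 414 tail-to-tail gaps, 11.4% had one in KO cells and 14.3% in WT cells. Flanks of 255 bp at genes of no gap gave lower shares, but that length is the median over all gaps. By orientation the median was 101.5 bp for head-to-head, 449 bp for head-to-tail and 381.5 bp for tail-to-tail gaps. The 5′ flanks had a peak in 42.2% of cases in KO cells and 43.3% in WT cells, and the 3′ flanks in 5.11% in KO cells and 5.88% in WT cells. A head-to-head gap lies at 2 gene starts and a flank at 1, and how far this bears on the shares was not tested. Counting a gap only where the summit lay inside it, head-to-head gaps stood at 37.4% in KO cells and 35.0% in WT cells. Head-to-tail gaps then stood at 30.8% in KO cells and 32.9% in WT cells, and tail-to-tail gaps at 5.56% and 7.49%. Head-to-head and head-to-tail gaps thus differed little over all lengths, but these shares pool unlike lengths. Within each class of gap length head-to-head gaps stood higher in both lists. Of gaps of 1 to 100 bp, 53 of 272 head-to-head and 4 of 56 head-to-tail gaps held the summit in KO cells. In WT cells 48 of 272 and 3 of 56 did.

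With any overlap of a peak counted, the same order held in each class of gap length. Head-to-head gaps of 1 to 100 bp had a peak in 95.2% of cases in KO cells and 96.0% in WT cells, and those over 300 bp in 87.1% in KO cells and 88.2% in WT cells. Tail-to-tail gaps of 1 to 100 bp had one in 6.67% in KO cells and 10.7% in WT cells, and those over 300 bp in 14.5% in KO cells and 16.2% in WT cells. Head-to-tail gaps of 1 to 100 bp had one in 48.2% in both KO and WT cells. Just inside the limit of the rule, 33 of 86 gaps over 900 and up to 1000 bp (38.4%) had a peak in KO cells and 36 (41.9%) in WT cells. Just outside it, 35 of 87 gaps over 1000 and up to 1100 bp (40.2%) had one in KO cells and 39 (44.8%) in WT cells.

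**Figure D1:**
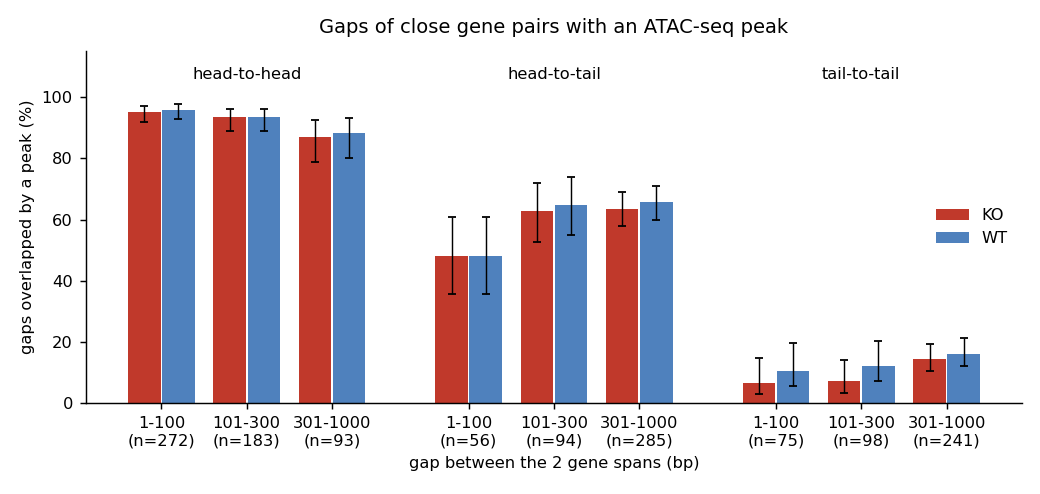
Percent of gaps overlapped by a peak in the KO list and in the WT list (bars from 0, lines are 95% Wilson intervals), by orientation and gap length in bp, with the number of gaps under each pair of bars. Head-to-head gaps of 1 to 100 bp stood at 95.2% in KO cells and 96.0% in WT cells, and tail-to-tail gaps of that length at 6.67% in KO cells and 10.7% in WT cells.

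Gap peaks were wide and of high rank. Their median width was 1607 bp (1562 to 1650) in KO cells and 1704 bp (1648 to 1747) in WT cells. Peaks at other gene ends, which overlapped the 1 kb on either side of a gene end but no gap, numbered 13724 in the KO list and 14504 in the WT list, with median widths of 1117 bp in KO cells and 1115 bp in WT cells. Most of that set lay at gene starts. Peaks at other 5′ ends were 1264 bp wide at the median in KO cells and 1311 bp in WT cells, and peaks at 3′ ends only were 529 bp wide in KO cells and 523 bp in WT cells. The median signal percentile of gap peaks was 92.1 (91.3 to 92.7) in KO cells and 93.0 (92.5 to 93.6) in WT cells. At other 5′ ends it was 85.6 in KO cells and 87.1 in WT cells. Peaks that reached the 255 bp 5′ flanks of genes of no gap came closer to gap peaks. Their median width was 1457 bp in KO cells and 1537 bp in WT cells. Their median percentile was 89.4 in KO cells and 90.7 in WT cells. The peaks of head-to-tail gaps alone, described below, lay close to these flank peaks. In the KO list 649 gap peaks (58.2%) lay in the highest decile of signal, and in the WT list 727 (63.5%) did. Of peaks at other 5′ ends 38.1% did in KO cells and 41.4% in WT cells. Of those at all other gene ends 31.7% did in KO cells and 33.7% in WT cells. A wide peak is more likely to reach a gap, so part of the width is set by the rule. Gap peaks whose summit lay inside the gap were still 1543 bp wide at the median in KO cells and 1597 bp in WT cells.

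**Figure D2:**
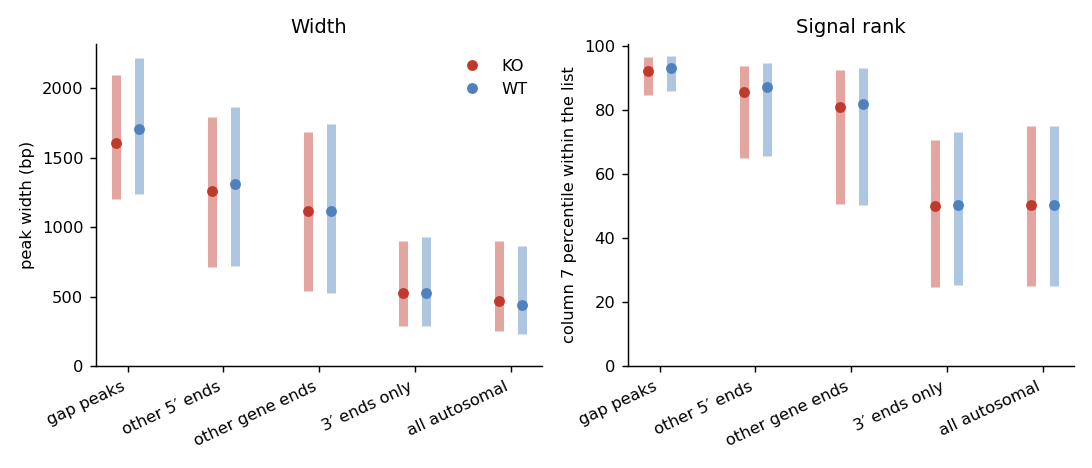
Median (point) and quartiles (bar) of peak width in bp and of the percentile of column 7, the deposited signal, within the own list, for gap peaks and 4 other sets of peaks, KO and WT. Gap peaks had median widths of 1607 bp in KO cells and 1704 bp in WT cells, against 529 bp in KO cells and 523 bp in WT cells at 3′ ends only.

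Over gaps of all lengths, the peaks of head-to-head pairs were the widest at the median and those of tail-to-tail pairs the narrowest. Per gap, the median width was 1728 bp in KO cells and 1866.5 bp in WT cells for head-to-head pairs, and 1485 bp in KO cells and 1510 bp in WT cells for head-to-tail pairs. For tail-to-tail pairs it was 819 bp in KO cells and 728 bp in WT cells. The signal percentile had the same order, at 93.9, 88.7 and 62.4 in KO cells and at 94.8, 90.3 and 66.3 in WT cells. In gaps of 1 to 100 bp the few tail-to-tail peaks (5 gaps in KO cells, 8 in WT cells) were not the narrowest. Their median width was 1534 bp in KO cells and 1550 bp in WT cells. That of head-to-tail peaks was 1468 bp in KO cells and 1535 bp in WT cells. Head-to-head peaks covered the whole gap in 498 of 511 gaps (97.5%) in KO cells and 500 of 514 (97.3%) in WT cells. They ran a median of 769 and 794 bp into the left and right gene in KO cells, and 829.5 and 854 bp in WT cells. Their width hardly followed the gap length, with a Spearman correlation across gaps of 0.16 in KO cells (511 gaps) and 0.14 in WT cells (514 gaps), as a description.

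At head-to-tail gaps the peak leaned towards the gene that starts there. It ran a median of 837 bp into the starting gene and 196 bp into the ending gene in KO cells, and 881 bp and 168 bp in WT cells. The summit, the point of highest signal, lay nearer to the starting gene in 224 of 267 gaps (83.9%) in KO cells and in 235 of 275 (85.5%) in WT cells. Its median distance to the gene start was 110 bp in KO cells and 111 bp in WT cells. At head-to-head gaps the summit lay within 250 bp of the middle of the gap in 79.3% of cases in KO cells and 78.6% in WT cells. Tail-to-tail peaks covered the whole gap in 18 of 47 gaps in KO cells and 25 of 59 in WT cells.

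**Figure D3:**
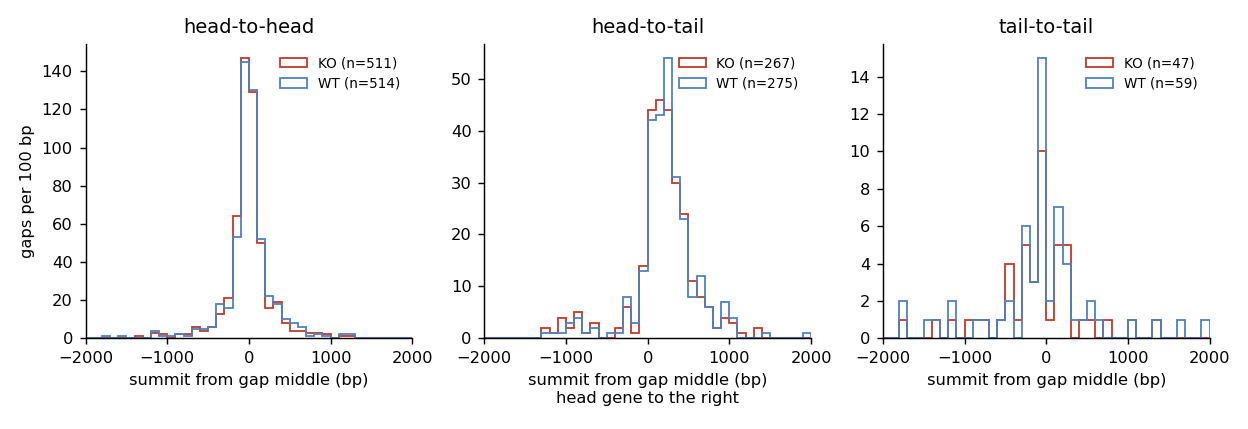
Number of gaps per 100 bp by distance of the peak summit from the middle of the gap, in bp, in the KO list and the WT list for each orientation, with the starting (head) gene of head-to-tail pairs on the right. Head-to-head summits gathered around the middle and head-to-tail summits towards the starting gene, and summits beyond 2000 bp (0 to 2 gaps in each set) are not drawn.

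Ranked by the lower of the KO and WT percentiles, 4 of the 5 highest gaps lay between histone genes. H3c15-H2ac19, which encode core histones H3 and H2A, shared a peak of 4196 bp in KO cells and 4188 bp in WT cells, both at percentile 99.97. H2ac18-H3c14 had one of 3816 bp in KO cells and 4487 bp in WT cells. H4c18, H2ac24 and H4bc24 lie in a row, and 1 peak spanned both of their gaps, with 4077 bp in KO cells and 4414 bp in WT cells. The other gap of these 5 was that between Pcgf2, a Polycomb protein gene, and the proteasome gene Psmb3, which are 999 bp apart. Its peak was 4444 bp wide in KO cells and 4494 bp in WT cells. The widest gap peak of the KO list was 5007 bp in KO cells and 5023 bp in WT cells. It lay at the tail-to-tail gap between Gchfr (a regulator of GTP cyclohydrolase) and the cochaperone gene Dnajc17. Next in the KO list were Nek8-Tlcd1 (4561 bp in KO cells, 4369 bp in WT cells) and Gm52351-Pdgfrb (4486 bp in KO cells, 4076 bp in WT cells). Pdgfrb encodes a platelet-derived growth factor receptor of fibroblasts.

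Gene groups were taken by the start or end of their symbols, so a few symbols in a group, such as the Rps6k kinases among the Rpl and Rps genes, belong to other functions. Of these groups histone genes had the highest share next to a gap, with 46 of 81 (56.8%), against 17.1% of all autosomal genes. Of their 28 gaps, 27 had a peak in both lists and 1 in neither, with a median percentile of 99.5 in KO cells and 99.7 in WT cells. Respiratory chain genes (Nduf, Uqcr, Cox and Atp5 symbols) followed with 46 of 98 genes (46.9%). Their 47 gaps had a peak in both lists in 35 cases, in KO only in 1, in WT only in 1 and in neither in 10. The gap of Uqcrh, a subunit of complex III, and Lrrc41 had a peak of 3299 bp in KO cells and 4165 bp in WT cells. Mitochondrial ribosome genes made up 30 of 78 (38.5%), and 27 of their 34 gaps had a peak in both lists, with none in 1 list alone. The peak of Abhd8-Mrpl34 stood at percentile 99.8 in KO cells and 99.7 in WT cells.

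Splicing and DNA repair genes gave similar counts. Of 31 gaps of splicing and RNA processing genes, 24 had a peak in both lists, 0 in KO only, 2 in WT only and 5 in neither. The peak between Cbx5, which encodes heterochromatin protein HP1 alpha, and Hnrnpa1, a splicing regulator gene, was 2027 bp wide in KO cells and 2681 bp in WT cells. Of 37 gaps of DNA repair and replication genes, 29 had a peak in both lists and 1 in the WT list only. Gaps with a peak in both lists numbered 11 of 14 for aminoacyl-tRNA synthetase genes, 13 of 20 for proteasome genes, 20 of 29 for chaperone genes and 23 of 33 for cytosolic ribosome genes. They numbered 24 of 38 for zinc finger genes, 36 of 66 for Tmem genes and 29 of 65 for solute carrier genes, beside 1097 of 1958 for all gaps. These counts were not adjusted for orientation, in which the groups differed. Head-to-head gaps made up 23 of 47 for respiratory chain, 16 of 34 for mitochondrial ribosome and 19 of 37 for DNA repair genes. They made up 11 of 65 for solute carrier genes and 548 of all 1958 gaps.

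Some groups had few gaps, and their counts are given beside 801 of all 1958 gaps (40.9%) without a peak in either list. Olfactory and vomeronasal receptor genes, which are used in sensory neurons, bordered gaps in 7 of 1458 cases, and none of their 5 gaps had a peak in the KO list or the WT list. Keratin genes (5 of 112 genes or 4.46%, 4 gaps) and a set of defence genes (3 of 135, 3 gaps) had no gap with a peak in either list. Chemokine genes had 2 gaps, of which 1 was open in both lists. That gap, 64 bp long, lies between Ccl25 and Elavl1, an mRNA-binding protein gene of most cells, and its peak was 2182 bp wide in KO cells and 2235 bp in WT cells. Collagen genes, many of which fibroblasts use, bordered gaps in 3 of 42 cases (7.14%), and zinc finger genes in 43 of 415 (10.4%). The collagen genes had 3 gaps, with a peak in both lists at 1, in WT only at 1 and in neither at 1. The one open in both lists, Col23a1-Phykpl, is head-to-tail, and it is Col23a1 that ends there and Phykpl that starts. Its peak stood at percentile 95.3 in KO cells and 96.6 in WT cells, with the summit inside Phykpl in both lists.

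Gap peaks were nearly all found in both genotypes. In KO cells 1108 of 1115 (99.4%, Wilson interval 98.7 to 99.7) overlapped a WT peak, and in WT cells 1117 of 1145 (97.6%, 96.5 to 98.3) overlapped a KO peak. The peaks without a partner were 0.628% in KO cells and 2.45% in WT cells. At other gene ends they were 4.71% in KO cells and 10.4% in WT cells, and of all autosomal peaks 13.6% in KO cells and 19.9% in WT cells. All 649 KO gap peaks and all 727 WT gap peaks in the highest decile of signal had a partner. With other gene ends weighted to the signal deciles of the gap peaks, their shared portion was 99.1% in KO cells and 97.4% in WT cells. Those values fall inside the intervals of the gap peaks.

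**Figure D4:**
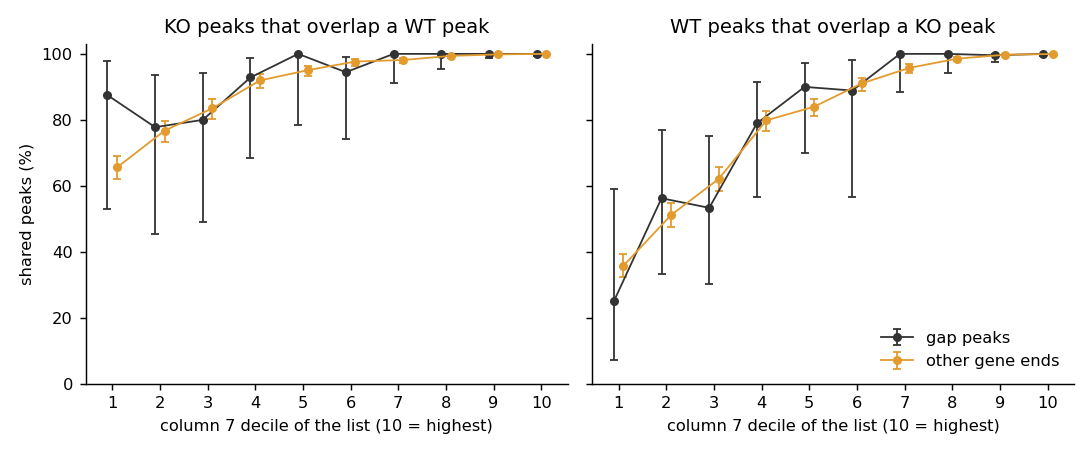
Percent of KO peaks that overlap a WT peak (left) and of WT peaks that overlap a KO peak (right), by decile of column 7, the deposited signal, for gap peaks and peaks at other gene ends, with 95% Wilson intervals. The intervals of gap peaks are wide in the low deciles, and in the highest decile all 649 KO and all 727 WT gap peaks were shared.

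The unshared gap peaks were weak and narrow. The 7 in KO cells were 178 to 579 bp wide and stood at percentiles 2.95 to 52.6, and the 28 in WT cells were 156 to 1193 bp wide at percentiles 3.73 to 80.7. Of the 7 KO peaks, 3 lay at head-to-tail gaps, 1 at a tail-to-tail gap and 3 at gaps of unknown orientation. Of the 28 WT peaks, 4 lay at head-to-head gaps, 7 at head-to-tail gaps, 5 at tail-to-tail gaps and 12 at gaps of unknown orientation. The strongest in KO cells was at chr7:139978301-139978879, in the 176 bp between Spef1l and Adam8, a metalloprotease gene. The nearest WT peak was 1944 bp away. Gm46963-Asprv1, at percentile 32.1, and Tmem143-Emp3, at 22.9, were the other unshared KO peaks among the highest 10 one-list gaps. The strongest in WT cells, named after its value was seen, was at chr4:48663209-48664381 between Tmeff1 and Cavin4, at percentile 80.7.

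Most of the strongest one-list gaps were reached by a peak that was shared outside the gap. Of the 14 gaps with a KO peak only, 8 were reached by a KO peak that overlapped a WT peak outside the gap. Of the 46 gaps with a WT peak only, 21 were reached by a WT peak that overlapped a KO peak outside the gap. Among KO-only gaps, Gm40364-Gm40363 had the highest percentile, 93.2, and the nearest WT peak lay 9 bp from the gap. At Lrrc45-Rac3, where Rac3 encodes a small GTPase, the KO peak stood at percentile 74.0 and the nearest WT peak lay 27 bp from the gap. At Il27ra-Rln3, an interleukin receptor gene and a relaxin gene, that distance was 11 bp. Among WT-only gaps the highest was Plxnb2-Dennd6b, where the WT peak at chr15:89178481-89182124 stood at percentile 99.7 and the nearest KO peak lay 64 bp from the gap. Plxnb2 encodes a semaphorin receptor. At Rps2-Ndufb10, a ribosomal protein gene and a respiratory complex I gene that end next to each other, the nearest KO peak lay 227 bp away. At Rnf123-Mst1 and Prr7-Dbn1 it lay 26 and 11 bp away. All of the 10 highest WT-only gaps had a WT peak that was shared outside the gap.

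Paired with their partners, gap peaks were slightly narrower in KO cells. Across 1078 matched peaks the median log2 ratio of KO to WT width was -0.05 (-0.06 to -0.03), with median widths of 1626.5 bp in KO cells and 1729 bp in WT cells. Peaks at other gene ends had the same median, -0.05, over 12106 matched peaks. The KO peak was the wider of the pair in 411 cases and the WT peak in 665. Of the gap peaks, 35 (3.25%) were at least 1.5 times wider in KO cells and 78 (7.24%) at least 1.5 times wider in WT cells. At other gene ends 6.75% passed this fold in KO cells and 12.1% in WT cells, and at other 5′ ends alone 5.06% did in KO cells and 11.1% in WT cells. Summits were 10 bp apart at the median, and 809 of 1078 lay within 50 bp of each other.

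**Figure D5:**
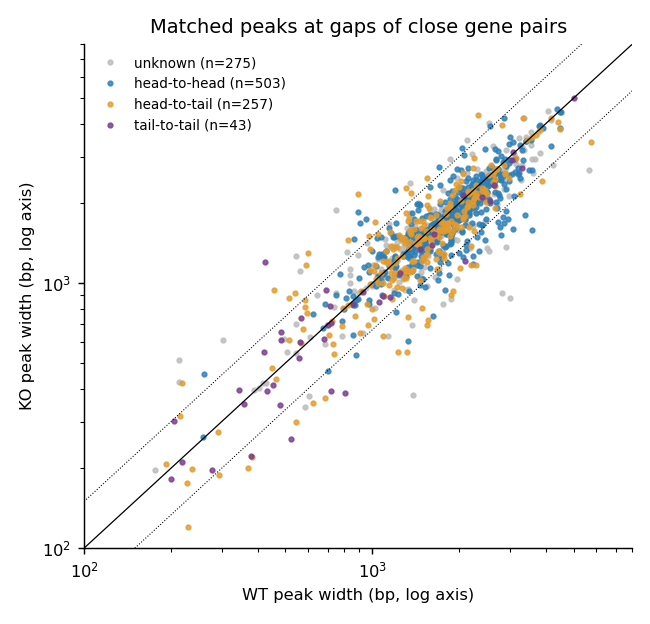
Width of the KO peak against that of the matched WT peak, in bp on log axes, for 1078 matched gap peaks coloured by orientation. The solid line marks equal widths and the dotted lines a 1.5-fold difference, beyond which lay 35 peaks wider in KO cells and 78 wider in WT cells.

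The width ratio was not the same on every chromosome. On chromosome 19 the median log2 ratio of 50 gap peaks was -0.17, and that of other gene-end peaks -0.31. On chromosome 8 it was -0.17 at 72 gap peaks, with -0.10 at other gene ends, and on chromosome 4 it was -0.13 at 62, with -0.18. On chromosome 6 it was 0.08 at 40 gap peaks (interval -0.07 to 0.21), with 0.05 at other gene ends. By orientation it was -0.05 at 503 head-to-head, -0.08 at 257 head-to-tail and -0.09 at 43 tail-to-tail peaks. Why chromosomes differ was not tested.

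Some matched peaks differed much more in width. The KO peak at Fkbp1b-Wdcp was 378 bp wide and the WT peak 1389 bp, and Fkbp1b encodes a binding protein of calcium release channels. At Ccni-2010109A12Rik, next to the cyclin I gene, the widths were 915 bp in KO cells and 2830 bp in WT cells, where the WT peak overlapped 3 KO peaks. The KO peak was the wider at Troap-C1ql4 (1204 bp in KO cells, 424 bp in WT cells) and at Commd3-Bmi1 (2179 bp in KO cells, 891 bp in WT cells). Bmi1 encodes a Polycomb protein, and that KO peak overlapped 3 WT peaks. The widest WT gap peaks were at Zmynd10-Rassf1 (2121 bp in KO cells, 6084 bp in WT cells), Jund-Iqcn (3401 bp in KO cells, 5767 bp in WT cells) and Slc35b2-Hsp90ab1 (2686 bp in KO cells, 5650 bp in WT cells). At Zmynd10-Rassf1 the 2121 bp peak was the KO peak on the gap, but it was not the matched partner of the WT peak. Rassf1 is a tumour suppressor gene, Jund an AP-1 subunit gene and Hsp90ab1 a chaperone gene. Each of these WT peaks overlapped 2 or 3 KO peaks, so a region called as 1 peak in WT cells was called as several in KO cells.

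Promoters of head-to-head genes were rich in CpG. A promoter here is 300 bp of RefSeq sequence, from 250 bp before to 50 bp after a RefSeq start of the gene. The start nearest to the annotated 5′ end of the gene was used, and 59.8% of these starts lay exactly at that end. For 1096 head-to-head genes the median GC content was 62.0% and the observed over expected CpG ratio 0.844. For 6392 genes of no gap that had a 5′ peak in both lists the values were 61.7% and 0.786, and for all 16457 genes with a sequence 56.7% and 0.597. Genes of head-to-head gaps with no peak in either list, 66 in number, had a ratio of 0.459. CCGGAAG was present on either strand in 27.1% of head-to-head promoters, 18.5% of promoters of open genes of no gap and 12.3% of all promoters. Within head-to-head promoters it was present in 28.7% where the gap had a peak in both lists and in 6.06% where it had none. GGGCGG was present in 66.2%, 67.3% and 47.3% of the sets of head-to-head, open and all promoters, in that order, and CCAAT in 45.5%, 39.2% and 39.1%. TATAAA, the core of the TATA box, was present in 5.66%, 6.51% and 13.5%. The palindromic motif of NRF1 was rare but most frequent in head-to-head promoters (3.56%, 2.21%, 1.37%). The other motifs were TGACGTCA (3.74%, 3.65%, 2.40%), TGANTCA (3.83%, 4.87%, 7.12%) and CACGTG (10.4%, 10.6%, 7.97%). All motifs were searched on both strands, and the promoters of a head-to-head pair share bases when the gap is short, so they are not independent.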

How the data were processed

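ATAC-seq was measured in 3 KO and 3 WT libraries. The submitters' processing notes name Bowtie2 2.5.1, deepTools 3.5.1, Genrich and build GRCm38. Not given in the sources used here are the Genrich settings, any Tn5 shift of reads, and how libraries were pooled. Per genotype the authors deposited 1 peak list, holding a summit position, a score, a signal and the −log10 of p at the summit. The deposited score equalled 1000 times the signal over the width, held at 1000, so the signal was used, as a percentile within its own list. Depth per library is unknown.

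Gene spans came from a RefSeq table of GRCm38.p6, and strand and 300 bp promoters from RefSeq promoter sequences of the same build, which held 16457 of 20665 autosomal genes. Gap sequence was joined from overlapping promoter windows. Peaks were shared if they overlapped by at least 1 bp, and matched to the partner of longest overlap if the choice was mutual. Intervals are 95% Wilson intervals for shares and order-statistic intervals for medians. Counts were checked with bedtools 2.31.1 and on a simulated list, the WT list without 200 gap peaks and with slightly moved ends. There 200 of 200 removed peaks were found without a partner, which checks the code and not how well KO and WT lists detect a loss. Python 3.11.15, numpy 2.4.6, pandas 2.3.3, scipy 1.17.1 and matplotlib 3.10.9 were used.

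Named gaps were the known neighbours, up to 10 gaps per one-list class and the 5 best in both lists by percentile, the 3 widest per list, the 3 matched peaks with the largest and the 3 with the smallest KO to WT width ratio, the best 2 per gene group and the gaps with the most peaks. A few of these are named, and some are not reported here. The members and lists were chosen with earlier results of these data known. Alternatives were the summit inside the gap, gaps up to 500 or 2000 bp, the upper 50% of peaks by −log10 p, lists of equal length, 7 chromosomes left out, reciprocal overlap of 50% and other rank measures. Comparison with other 5′ ends, plain and weighted by width, was added after seeing the data. Peaks on the sex chromosomes stayed out of the main values.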

Additional observations from a re-analysis of the deposited data

How the results depend on the processing

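The order of gap peaks above other gene ends in width and signal percentile held under every alternative for which both were computed. With the summit inside the gap, 407 gaps had a summit in both lists, 76 in KO only, 86 in WT only and 1389 in neither. Head-to-head gaps then had one in 37.4% (KO) and 35.0% (WT), head-to-tail in 30.8% (KO) and 32.9% (WT) and tail-to-tail in 5.56% (KO) and 7.49% (WT). KO stood above WT at head-to-head gaps. Head-to-head gaps, which were shorter, stood little above head-to-tail gaps over all lengths, but higher within each length class. The WT share was then 95.4%, the width 1543 bp (KO) and 1597 bp (WT), and the WT percentile 92.4. With gaps up to 2000 bp the share was 98.6% (KO) and 96.2% (WT), the width 1547 (KO) and 1604 bp (WT) and the percentile 90.8 (KO) and 92.0 (WT), with 27 KO-only, 73 WT-only and 1247 closed gaps. With gaps up to 500 bp the WT share was 99.1% and the WT percentile 93.6, with 25 WT-only and 504 closed gaps. With the upper 50% by p the WT share was 98.4%, the WT width 1755 bp and the percentile 92.7 (KO) and 93.7 (WT). Lists of equal length gave a WT share of 98.6%. Reciprocal overlap of 50% gave shares of 94.8% (KO) and 92.9% (WT). Signal over width gave percentiles of 85.3 (KO) and 86.1 (WT), and summit p gave 90.1 (KO) and 90.7 (WT). Other 5′ ends weighted by width, chosen after seeing the data, had shares of 99.0% (KO) and 97.2% (WT), close to the gap peaks. The causes were not tested. No paired analysis was possible because each list combines the libraries of a genotype and carries no replicate numbers, so no library could be left out either. Depth is unknown, and a peak in 1 list only cannot be told from one just under the other list's threshold.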

Other observations

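Gaps on chromosome X were kept apart from the autosomal values. Of 42 such gaps, 20 had a peak in both lists, none in KO only, none in WT only and 22 in neither. The 20 KO peaks had a median width of 1488.5 bp and the 20 WT peaks 1753 bp. Their median signal percentile was 90.8 in KO cells and 93.6 in WT cells, and 0 of 20 peaks in each list lacked a partner.

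A few gaps held more than 1 peak. In each list 14 gaps held 2 peaks, among them Mc1r-Tubb3, a melanocortin receptor gene and a tubulin gene, and H2ac7-H3c4, a histone pair. In the other direction, 10 KO peaks and 12 WT peaks each reached 2 gaps.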
